A study of Mus musculus with 11 samples.

Results

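The genes described are Myc and 9 genes of the machinery that takes a cell through G1: the D-type cyclins Ccnd1, Ccnd2 and Ccnd3, the E-type cyclin Ccne1, the kinases Cdk4, Cdk6 and Cdk2, the inhibitor Cdkn1b and the retinoblastoma gene Rb1. They were chosen by name, with earlier results of these data known. They make up 10 of the 55350 genes listed in the pancreas or adipose count table, and 10 of 10 passed the filter on low counts in each tissue.

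The samples came from wild type mice, C57BL/6 and 16 weeks old by the labels, and C57BL/6J and male by the methods of the study. The control group, of lean mice, was kept on normal chow and given saline intraperitoneally. The obesity-related alcohol-induced acute pancreatitis (OA-AP) group, labelled Model, was kept on high-fat food, likewise for 12 weeks, and was given ethanol at 2 g/kg intraperitoneally, in 2 injections 1 h apart. Tissue was taken 12 h after the first injection. The pancreas libraries numbered 2 for the control and 3 for the OA-AP group, and the libraries of epididymal adipose tissue 3 for each. Diet, ethanol and pancreatitis differ together between the groups and cannot be told apart. The labels number the samples of a group but do not say how the animals or cages were allotted to them, so p-values measure the spread between these samples.

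A cell that is told to divide raises D-type cyclins, which bind Cdk4 or Cdk6 and start to phosphorylate the retinoblastoma protein. Cyclin E with Cdk2 completes this step, E2F factors are released, and genes of DNA synthesis are transcribed, while p27, the product of Cdkn1b, holds Cdk2 back. Myc is an early growth-responsive transcription factor that binds DNA with Max and promotes ribosome building and metabolism. In the pancreas most acinar cells are quiescent, and in fat tissue the dividing cells lie mainly among precursors and immune cells rather than among mature adipocytes.

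Libraries held 14188832 to 17238919 counts in the pancreas and 20825177 to 27928097 in adipose tissue. The pancreas was dominated by acinar RNA. A list of 50 acinar genes took 81.9% and 83.4% of control counts and 67.6% to 70.2% of OA-AP counts, so levels are given as CPM, a gene's count relative to the library total, with totals scaled by TMM factors. Summed CPM of 12 acinar markers ranged from 574000 to 671500 in the control and from 268100 to 347500 in the OA-AP pancreas. Of the 12, 9 fell by the rule given below, beside 13.5% of all genes tested. In adipose tissue the adipocyte markers Adipoq, Lep and Plin1 were present in every library. One adipose library, control replicate 2, held 1.17% acinar counts against 0.0186% to 0.0260% in the other 5.

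Below, "edgeR adjusted p" is the Benjamini-Hochberg adjusted p-value of edgeR's quasi-likelihood test over all genes tested in a tissue, and a gene is said to rise or fall, or to be called, where it is under 0.05 and the fold change is at least 1.5. Of the 10 genes, 4 were called in the pancreas: Myc, Ccnd1 and Ccnd2 fell and Cdkn1b rose. This compares with 29.8% of the 12884 genes tested there (16.2% rose and 13.5% fell). In adipose tissue 3 of 10 were called, Myc and Cdk4 upward and Cdkn1b downward, against 25.1% of 15839 genes (12.1% rose and 13.0% fell). The share called among the 10 was thus near that of all genes in both tissues. Control and OA-AP libraries did not overlap in CPM for 7 of 10 genes in the pancreas, where 62.3% of all genes did not overlap, and for 6 of 10 in adipose tissue, where 52.4% did not. The median log2 fold change of the 10 was 0.012 in the pancreas, beside 0.039 over all genes, and 0.13 in adipose tissue, beside -0.015.

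**Figure D1:**
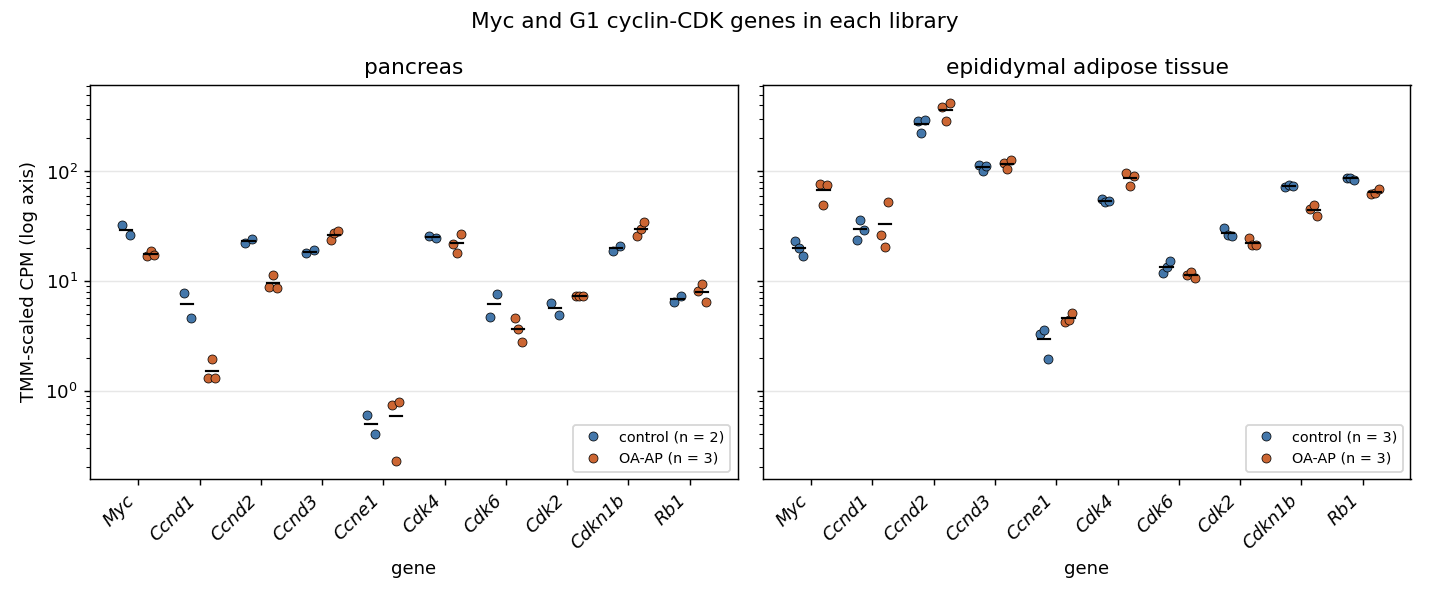
TMM-scaled CPM (log axis) of the 10 genes in each library of the pancreas (left, 2 control and 3 OA-AP) and of epididymal adipose tissue (right, 3 and 3), with points for libraries and bars for group means. Myc libraries sit between 26.5 and 32.4 CPM in the control pancreas and between 17.1 and 18.6 CPM in the OA-AP pancreas, and the order is the opposite in adipose tissue.

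Myc (ENSMUSG00000022346) lies on the plus strand at chr15:61985391-61990374 of GRCm38. In the pancreas it was at 32.4 and 26.5 CPM in the control libraries and at 17.1, 18.6 and 17.2 CPM in the OA-AP libraries. Both control libraries lay above all 3 OA-AP libraries. The group means were 29.5 ± 4.18 CPM (SD, n = 2) and 17.6 ± 0.877 CPM (SD, n = 3). The log2 fold change was -0.74 (SE 0.15, edgeR adjusted p = 0.00652). In adipose tissue Myc moved the other way. The control libraries had 23.4, 19.9 and 17.0 CPM and the OA-AP libraries 77.5, 49.1 and 75.8 CPM, so that the lowest OA-AP library exceeded the highest control library by a wide margin. The log2 fold change was 1.75 (SE 0.20, edgeR adjusted p = 0.00154), or 3.36-fold. The adipose rise held with each library left out (1.65 to 1.94). The fall in the pancreas was no longer called without control replicate 1 (-0.58), and it was -0.039 when libraries were scaled by their totals alone. Leaving out either pancreas control leaves 1 control, and fewer of all genes are then called. A call lost there need not mean a smaller change.

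That scaling bears on every pancreas value. With library totals in place of TMM the median log2 fold change of all pancreas genes moved from 0.039 to 0.75 and 92.0% of called genes were higher in OA-AP, against 54.5% with TMM. Of the 10 genes, 4 were then called upward (Ccnd3, Cdk2, Cdkn1b and Rb1) and 1 downward (Ccnd1). In adipose tissue the same change moved the median from -0.015 to -0.17 and the upward share of calls from 48.1% to 32.1%, with 1 of the 10 genes called upward and 1 downward. Factors computed without the acinar genes gave 4 called genes in the pancreas, the number found with all genes. The part that the acinar share has in the pancreas changes was not tested, and in bulk tissue fewer cells of a type and less RNA per cell cannot be told apart.

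The D-type cyclins are the sensors of growth signals at the start of G1, and each can activate Cdk4 and Cdk6. In the pancreas Ccnd1 and Ccnd2 fell while Ccnd3 was higher without reaching the fold threshold. Ccnd1 (minus strand, chr7:144929931-144939925) was at 7.72 and 4.59 CPM in the control and at 1.31, 1.95 and 1.31 CPM in the OA-AP libraries. No library of one group reached the other, although these levels rest on 25 to 90 counts. The log2 fold change was -2.02 (SE 0.35, edgeR adjusted p = 0.00368), 4.05-fold lower in OA-AP. Without control replicate 1 it was -1.58 and no longer called (edgeR adjusted p = 0.0634).

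Ccnd2 (minus strand, chr6:127125162-127152193) was at 22.3 and 24.3 CPM in the control pancreas and at 8.82, 11.4 and 8.58 CPM in the OA-AP pancreas. The groups were far apart relative to their spread. Its log2 fold change of -1.28 (SE 0.17, edgeR adjusted p = 0.00133) was the only one of the 10 genes in the pancreas that stayed called with each library left out in turn (-1.42 to -1.21), and it was -0.56, under the fold threshold, with library totals alone. Ccnd3 (plus strand, chr17:47505051-47599691) had 17.8 and 19.1 CPM in the control and 23.8, 27.2 and 28.5 CPM in the OA-AP libraries. All 3 OA-AP libraries were above both controls, with a log2 fold change of 0.52 (SE 0.15, edgeR adjusted p = 0.0276). At 1.43-fold it did not meet the fold threshold.

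The makeup of the D-type cyclin counts does not depend on how libraries are scaled. In the pancreas Ccnd3 took 37.3% and 39.8% of the Ccnd1, Ccnd2 and Ccnd3 counts of the control pancreas, but between 67.0% and 74.3% in OA-AP. Ccnd2 went from a mean of 48.6% to 25.5% and Ccnd1 from 12.8% to 4.02%. Ccnd2 was thus the most counted D-type cyclin in both control libraries and Ccnd3 in all 3 OA-AP libraries. In adipose tissue Ccnd2 remained the main one, with 62.2% to 67.6% in the control and 69.9% to 72.7% in the OA-AP libraries.

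**Figure D2:**
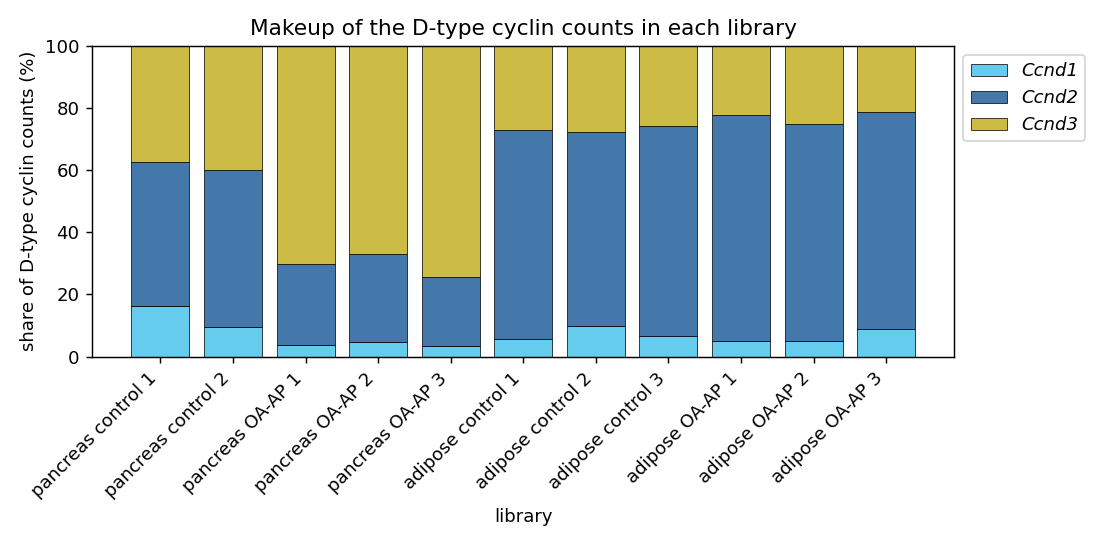
Stacked bars give the share (%) of the summed Ccnd1, Ccnd2 and Ccnd3 counts taken by each gene in each of the 11 libraries. The Ccnd3 part grows from 37.3% and 39.8% in the control pancreas to between 67.0% and 74.3% in the OA-AP pancreas and stays between 21.2% and 27.8% in adipose tissue.

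None of the D-type cyclins was called in adipose tissue. Ccnd2, the most abundant, was at 287, 226 and 294 CPM in the control and at 388, 290 and 423 CPM in the OA-AP libraries, with the lowest OA-AP library inside the control range. Its log2 fold change was 0.45 (95% interval 0.036 to 0.86, edgeR adjusted p = 0.0833), and it was called without OA-AP replicate 2 (0.60). Ccnd1 was at 23.5, 36.2 and 29.3 CPM in the control and at 26.5, 20.4 and 53.1 CPM in the OA-AP libraries. One OA-AP library lay below and one above all controls, and the log2 fold change of 0.17 (95% interval -0.68 to 1.02) turned to -0.33 without OA-AP replicate 3. Ccnd3 was at 101 to 116 CPM in the control and 104 to 128 CPM in the OA-AP libraries, a log2 fold change of 0.10 (95% interval -0.16 to 0.35) that was -0.055 with library totals alone.

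Ccne1 (minus strand, chr7:38097984-38107534) encodes cyclin E1, which drives Cdk2 late in G1. It was barely counted in the pancreas, with 7 and 4 counts in the control and 14, 4 and 15 counts in the OA-AP libraries. A change of 0.22 with a 95% interval from -1.39 to 1.82 on the log2 scale was not detectable at this depth, and its sign turned without control replicate 2 (-0.033). Adipose tissue had 57 to 101 counts per library. The control libraries were at 3.32, 3.56 and 1.94 CPM and the OA-AP libraries at 4.25, 4.42 and 5.10 CPM. All OA-AP libraries were higher, with a log2 fold change of 0.65 (SE 0.26), but it did not pass the test (edgeR adjusted p = 0.0880).

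Cdk4 and Cdk6 are the partners of the D-type cyclins. In adipose tissue Cdk4 (plus strand, chr10:127063534-127067920) was at 56.4, 52.1 and 53.8 CPM in the control libraries and at 97.8, 74.0 and 91.9 CPM in the OA-AP libraries. The groups did not overlap and the control libraries differed little among themselves. It rose by a log2 fold change of 0.70 (SE 0.12, edgeR adjusted p = 0.00460), or 1.62-fold, and stayed called with each library left out (0.62 to 0.81), although with library totals alone it was 0.55 and under the fold threshold. In the pancreas Cdk4 was at 25.9 and 24.6 CPM in the control and at 21.8, 18.0 and 27.1 CPM in the OA-AP libraries. These overlapped, and the log2 fold change of -0.18 (95% interval -0.61 to 0.25, edgeR adjusted p = 0.490) was 0.52 with library totals alone.

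Cdk6 (plus strand, chr5:3341485-3531008) was less abundant than Cdk4 and not called in either tissue. The pancreas had 4.72 and 7.68 CPM in the control and 4.62, 3.66 and 2.77 CPM in the OA-AP libraries. The lower control library nearly touched the highest OA-AP library, and the log2 fold change was -0.74 (95% interval -1.47 to -0.018, edgeR adjusted p = 0.104). In adipose tissue the control libraries had 11.9, 13.4 and 15.2 CPM and the OA-AP libraries 11.5, 12.2 and 10.7 CPM, a log2 fold change of -0.24 (95% interval -0.55 to 0.069). As a share of the Cdk4 and Cdk6 counts, Cdk6 was at 17.4% to 22.1% in the control and at 10.4% to 14.1% in the OA-AP adipose libraries, so the mix was more weighted to Cdk4 in every OA-AP library. The pancreas shares of 15.4% and 23.8% in the control and 9.27% to 17.5% in OA-AP overlapped.

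Cdk2 (minus strand, chr10:128697939-128705031), the partner of cyclin E, was not called in either tissue and pointed in opposite directions. In the pancreas it was at 6.35 and 4.89 CPM in the control and between 7.35 and 7.38 CPM in all 3 OA-AP libraries. The OA-AP libraries agreed closely and were above both controls, with a log2 fold change of 0.39 (95% interval -0.090 to 0.86, edgeR adjusted p = 0.184). In adipose tissue Cdk2 had 30.6, 26.6 and 25.9 CPM in the control and 24.6, 21.3 and 21.2 CPM in the OA-AP libraries. Here the OA-AP libraries were all lower, with a log2 fold change of -0.31 (95% interval -0.56 to -0.047, edgeR adjusted p = 0.0652).

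The promoter letters of Cdk4, Cdk6 and Cdkn1b are shown because Myc and Max bind the E-box, CACGTG, and Cdk4 and Cdkn1b were the genes called together with Myc in adipose tissue. Cdk6 was not called, and the window of the third kinase gene, Cdk2, which holds no E-box, is not printed. RefSeq promoter windows on GRCm38.p6 were at hand for 6 of the 10 genes: Ccnd3, Ccne1, Cdk4, Cdk6, Cdk2 and Cdkn1b. The 250 bases before the RefSeq start of Cdk4 (plus strand, chr10:127063285-127063534), Cdk6 (plus strand, chr5:3343643-3343892) and Cdkn1b (plus strand, chr6:134920151-134920400) are given 5′ to 3′, with each E-box in capitals. The Cdk6 window lies inside the gene span given above for Cdk6, so its RefSeq start is not the start of that span.
Cdk4: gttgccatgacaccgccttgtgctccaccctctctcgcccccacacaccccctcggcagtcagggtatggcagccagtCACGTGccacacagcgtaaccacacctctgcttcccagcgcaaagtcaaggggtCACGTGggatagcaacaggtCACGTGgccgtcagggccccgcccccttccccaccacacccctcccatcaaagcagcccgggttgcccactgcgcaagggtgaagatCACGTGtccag
Cdk6: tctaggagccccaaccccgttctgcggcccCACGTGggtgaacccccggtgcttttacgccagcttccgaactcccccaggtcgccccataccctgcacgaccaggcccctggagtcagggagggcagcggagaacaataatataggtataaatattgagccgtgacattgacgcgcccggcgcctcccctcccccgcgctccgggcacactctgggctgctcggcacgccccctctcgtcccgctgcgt
Cdkn1b: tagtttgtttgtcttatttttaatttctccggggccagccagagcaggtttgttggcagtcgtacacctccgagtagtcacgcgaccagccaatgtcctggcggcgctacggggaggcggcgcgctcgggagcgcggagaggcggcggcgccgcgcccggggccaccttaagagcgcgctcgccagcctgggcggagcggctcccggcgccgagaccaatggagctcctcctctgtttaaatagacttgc

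The Cdk4 window holds 4 E-boxes, which begin 172, 118, 98 and 11 bases before the start, and the Cdk6 window holds 1, which begins 220 bases before it. The other windows of the 6 genes hold none. CACGTG reads the same on both strands. At least 1 E-box stands in 6.02% of the 32851 mouse windows of this length and at least 4 in 0.0213% of them, that is in 7 windows. TTTCGCGC and TTTGGCGC, a pair of E2F strings searched on both strands that can share bases when they lie on opposite strands, are in 0.256% and 0.417% of all windows and in none of those of the 6 genes. Other forms of the E2F site were not searched, so this does not show that the windows lack E2F sites. A match of letters is a description and does not show that a factor is bound.

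Cdkn1b (plus strand, chr6:134920401-134925513) encodes p27, which holds cyclin E-Cdk2 inactive. It was called in both tissues, upward in the pancreas and downward in adipose tissue. The pancreas had 19.0 and 20.9 CPM in the control and 25.7, 29.7 and 34.6 CPM in the OA-AP libraries. Every OA-AP library was higher, and the log2 fold change was 0.59 (SE 0.17, edgeR adjusted p = 0.0279). At 1.51-fold it lay at the edge of the fold threshold. The call was lost with DESeq2 (0.56), with DESeq2 size factors in edgeR (0.56), with the replicate number as a block (0.47), without control replicate 1 (0.53), without control replicate 2 (0.67) and without OA-AP replicate 3 (0.43).

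In adipose tissue Cdkn1b was at 72.8, 75.1 and 73.6 CPM in the control and at 45.4, 49.8 and 39.2 CPM in the OA-AP libraries. The 3 control libraries were almost equal and all lay far above the OA-AP libraries. It fell by 0.72 on the log2 scale (SE 0.10, edgeR adjusted p = 0.00269), a call that held with each library left out (-0.80 to -0.63). Counts of Cdkn1b as a share of those of Cdkn1b, Cdk4, Cdk6 and Cdk2 together went from 42.4% to 44.9% in the control to 24.1% to 31.7% in the OA-AP adipose libraries. In the pancreas this share was 33.9% and 36.0% in the control and 43.2% to 50.6% in the OA-AP libraries. This share, with Cdkn1b as the only inhibitor counted, moved in opposite directions in the 2 tissues, and within each tissue the groups did not overlap.

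Rb1 (minus strand, chr14:73183673-73325822) encodes the pocket protein that the G1 kinases phosphorylate. In adipose tissue it was at 88.1, 87.7 and 83.8 CPM in the control and at 62.8, 64.1 and 69.5 CPM in the OA-AP libraries. All OA-AP libraries were lower, with a log2 fold change of -0.40 (SE 0.082, edgeR adjusted p = 0.00920), but at 1.32-fold the gene did not meet the fold threshold. The pancreas had 6.44 and 7.38 CPM in the control and 8.03, 9.38 and 6.43 CPM in the OA-AP libraries, which overlapped (0.20 on the log2 scale, 95% interval -0.31 to 0.72).

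**Figure D3:**
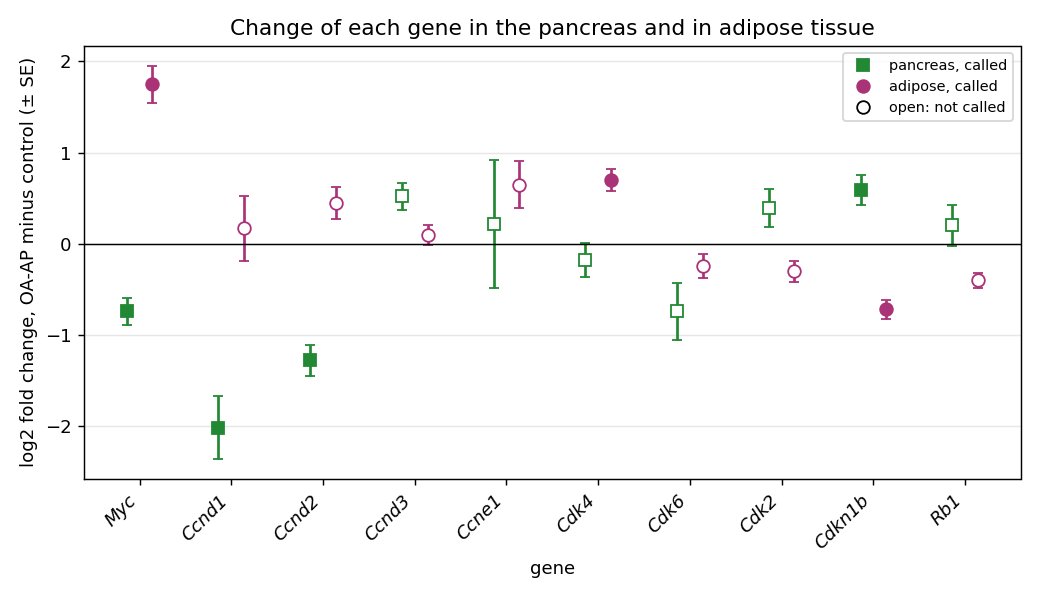
Log2 fold change, OA-AP minus control, of each gene in the pancreas (squares) and in adipose tissue (circles), with bars for ± 1 SE and filled symbols for called genes. Myc is at -0.74 in the pancreas and 1.75 in adipose tissue, and Cdkn1b at 0.59 and -0.72.

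Whether the change differed between tissues was tested in a fit of all 11 libraries as independent samples, although the labels do not say whether the pancreas and adipose samples came from the same mice. It differed for 6 of the 10 genes, beside 21.3% of 17046 genes (10.5% with the pancreas change above the adipose change and 10.8% below). The pancreas change was below the adipose change for 4. Myc differed by -2.48 on the log2 scale (SE 0.26, edgeR adjusted p = 0.000112), Ccnd2 by -1.71 (SE 0.25, edgeR adjusted p = 0.000722), Ccnd1 by -2.19 (SE 0.56, edgeR adjusted p = 0.0184) and Cdk4 by -0.87 (SE 0.22, edgeR adjusted p = 0.0169). It was above for Cdkn1b, by 1.32 (SE 0.20, edgeR adjusted p = 0.000906), and for Cdk2, by 0.70 (SE 0.21, edgeR adjusted p = 0.0343). Rb1 (0.62, edgeR adjusted p = 0.0502), Ccnd3 (0.43, edgeR adjusted p = 0.0925), Cdk6 (-0.49, edgeR adjusted p = 0.339) and Ccne1 (-0.42, edgeR adjusted p = 0.734) were not called.

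The differences of Myc, Ccnd2 and Cdkn1b stayed called with each of the 11 libraries left out. That of Ccnd1 was lost without pancreas control replicate 1 (-1.74) or pancreas OA-AP replicate 3 (-2.09), and that of Cdk4 without pancreas control replicate 1 (-0.82). The Cdk2 call was lost without pancreas control replicate 2 (0.52), pancreas OA-AP replicate 1 (0.71) or adipose OA-AP replicate 3 (0.72), and Rb1 was called without pancreas OA-AP replicate 3 (0.75). With same-numbered pancreas and adipose samples blocked as 1 mouse, Ccnd1 (-2.08, edgeR adjusted p = 0.0775) and Cdk2 (0.76, edgeR adjusted p = 0.0877) were not called. With library totals alone the median difference of all genes moved from 0.0555 to 0.88 and 94.1% of calls had the pancreas change above, against 49.3%. Myc, Ccnd2, Cdkn1b and Cdk2 were still called then, and Ccnd3 (1.28) and Rb1 (1.47) were called as well. Cdk4 was at -0.032 and Ccnd1 at -1.36, both not called, and Ccne1 and Cdk6 turned to 0.40 and 0.38.

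Levels of different genes can be set side by side per kilobase of the deposited gene length. On the scale of CPM per kb Myc was the highest of the 10 genes in the control pancreas, with 10.8 ± 1.54 (SD, n = 2), ahead of Cdk4 with 7.78, Cdkn1b with 4.38, Ccnd2 with 2.48 and Ccnd3 with 2.11. Only the neighbours Ccnd1 (1.31) and Rb1 (1.15) overlapped, and Cdk2 (0.903), Cdk6 (0.443) and Ccne1 (0.188) came last. In the OA-AP pancreas Cdk4 (6.87), Cdkn1b (6.60) and Myc (6.49) overlapped at the top and Ccnd3 (3.02) stood alone. Rb1 (1.32), Cdk2 (1.18) and Ccnd2 (1.02) overlapped in turn, as did Ccnd1 (0.323), Cdk6 (0.263) and Ccne1 (0.219).

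Adipose tissue had a different order in the same unit, CPM per kb. Its libraries were scaled apart from those of the pancreas, so the order can be compared between tissues but the values cannot. Differences in level between the control tissues were taken from the fit of all 11 libraries. Ccnd2 led the control libraries with 28.6 ± 3.98 (SD, n = 3), followed by Cdk4 (16.6) and Cdkn1b (16.2), which overlapped, then by Rb1 (14.4) and Ccnd3 (12.5). Myc (7.38) and Ccnd1 (6.30) overlapped in the sixth and seventh places, Cdk2 (4.45) was alone, and Ccne1 (1.10) and Cdk6 (0.966) overlapped at the end. In the OA-AP libraries Myc, with 24.8 ± 5.85 (SD, n = 3), stood in the third place and overlapped with Cdk4 (27.0), behind Ccnd2 (39.0). Ccnd3 (13.3) came next and alone. Cdkn1b (9.84) had moved to the sixth place, overlapping Rb1 (10.9) above it and Ccnd1 (7.08) below it, and Cdk2 (3.60), Ccne1 (1.72) and Cdk6 (0.817) were each apart from their neighbours.

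Between the control tissues, in the fit of all 11 libraries, 6 of 10 genes were called, beside 55.5% of 17046 genes (29.4% lower in the pancreas). Myc was 5.78-fold higher in the pancreas (log2 difference 2.53, edgeR adjusted p = 5.03e-07), and Cdk4 (0.88) and Cdk6 (0.84) were higher as well. Rb1 (-1.67), Ccnd2 (-1.55) and Ccnd3 (-0.59) were lower in the pancreas, and Ccnd1 (-0.28), Ccne1 (-0.56), Cdk2 (-0.32) and Cdkn1b (0.085) were not called. These values rest on the scaling, since most of the pancreas counts are acinar. With library totals alone the median difference of all genes moved from -0.22 to -2.67, the share of calls higher in the pancreas from 46.9% to 7.42%, and 9 of the 10 genes were called lower in the pancreas, with Myc at 0.072. The Cdk6 call ended without pancreas control replicate 2 (0.45) or adipose control replicate 1 (0.70), and that of Ccnd3 without pancreas control replicate 1 (-0.58).

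For 7 of the 10 genes, exon bases are shared with a gene on the opposite strand in the GENCODE M21 annotation. The library kit named in the methods does not mark strand and the strand setting of the counting was not given in the sources used here, so reads from these stretches cannot be told apart. Ccnd1 shares 23.4% of its exon bases with LTO1, Cdk4 19.7% with Tspan31, and Rb1 8.11% with Rcbtb2 and 6.78% with Lpar6. Summed over libraries, LTO1 had 417 counts in the pancreas, where Ccnd1 had 25 to 90 a library, and 2459 in adipose tissue. Tspan31 had 709 and 6714. The part of these overlaps in the changes of Ccnd1 and Cdk4 was not tested. For Ccnd2, Ccnd3, Cdk6 and Cdk2 each overlap was under 5% of the exon bases. Myc, Ccne1 and Cdkn1b have none.

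Other CDK inhibitors changed beside Cdkn1b. Of a list of 6, 4 were tested in the pancreas, of which 1 rose and 1 fell, and 5 in adipose tissue, of which 2 rose and 2 fell. Counts of this and the later lists stand beside 29.8% of all genes called in the pancreas and 25.1% in adipose tissue. In the pancreas 16.2% of all genes rose and 13.5% fell, and in adipose tissue 12.1% rose and 13.0% fell. Cdkn1a, which encodes p21 and is a classical p53 and stress target, was at 3.52 and 2.39 CPM in the control pancreas and at 184, 125 and 241 CPM in the OA-AP pancreas. The log2 fold change of 5.94 (SE 0.38, edgeR adjusted p = 0.000132) held with each library left out (5.64 to 6.26). In adipose tissue Cdkn1a was at 49.3, 46.0 and 41.9 CPM in the control and at 89.9, 239 and 109 CPM in the OA-AP libraries. All OA-AP libraries were above the controls, though unequal among themselves, with a log2 fold change of 1.68 (SE 0.36, edgeR adjusted p = 0.0135) that was not called without control replicate 3 (1.63). Cdkn1a took 10.3% and 15.7% of the summed Cdkn1a and Cdkn1b counts in the control pancreas and 80.7% to 87.7% in the OA-AP pancreas. In adipose tissue this share went from between 36.3% and 40.4% to between 66.4% and 82.8%.

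The remaining inhibitors were measured well only in adipose tissue. Cdkn2c, which encodes p18, an inhibitor of Cdk4 and Cdk6, was at 190, 96.6 and 101 CPM in the control and at 45.1, 22.6 and 28.3 CPM in the OA-AP libraries, a log2 fold change of -2.02 (SE 0.36, edgeR adjusted p = 0.00679). Cdkn1c (p57) fell too, from 48.7 ± 21.9 to 18.7 ± 2.57 CPM (SD, n = 3 each), by 1.38 on the log2 scale. Cdkn2d (p19), of the same family as Cdkn2c, was higher, with 7.70 ± 0.398 CPM in the control and 16.6 ± 1.92 CPM in OA-AP (SD, n = 3 each). It rose by 1.11 on the log2 scale (SE 0.13, edgeR adjusted p = 0.00142). In the pancreas Cdkn1c fell from 2.01 to 0.415 CPM (-2.26 on the log2 scale), on 6 to 27 counts a library, a call lost without control replicate 1 (-2.01).

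**Figure D4:**
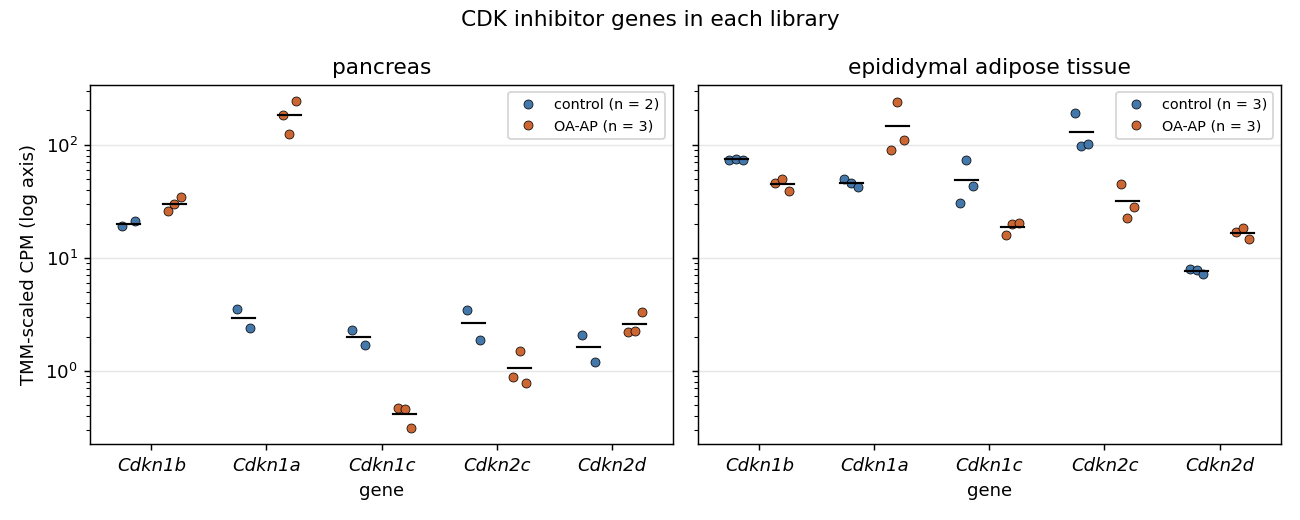
TMM-scaled CPM (log axis) of Cdkn1b and 4 other CDK inhibitor genes in each library of the pancreas (left) and of epididymal adipose tissue (right), with points for libraries and bars for group means. Cdkn1a is at 2.39 and 3.52 CPM in the control pancreas and at 125 to 241 CPM in the OA-AP pancreas, and Cdkn1b moves in opposite directions in the tissues.

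Genes listed as targets of Myc, most of them for nucleolar, translation and one-carbon functions, were mostly higher in the OA-AP adipose tissue. The list was chosen with earlier results of these data known. Of 24 genes, 22 rose and none fell, where 12.1% of all genes rose and 13.0% fell. The median log2 fold change was 1.09, beside -0.015 over all 15839 genes. Odc1, the first enzyme of polyamine synthesis, was at 65.5, 96.2 and 76.2 CPM in the control and at 303, 271 and 318 CPM in the OA-AP libraries (log2 fold change 1.91, SE 0.16, edgeR adjusted p = 0.000524). The ranges were far apart. Nop58, a box C/D snoRNP protein of the nucleolus, rose from 25.5 to 85.3 CPM (1.74) and Gnl3, nucleostemin, from 29.4 to 87.4 CPM (1.57). The genes outside the calls were Rrs1 (0.54) and Tfrc (-0.37), the latter an iron uptake receptor that was lower. The count was 21 to 23 with any 1 library left out and 18 with library totals alone.

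In the pancreas the same 24 genes had no common direction, with 4 that rose and 5 that fell and a median log2 fold change of -0.11, beside 0.039 over all 12884 genes. Ldha, lactate dehydrogenase A, rose from 21.6 ± 0.988 (n = 2) to 56.9 ± 10.8 CPM (n = 3), a log2 fold change of 1.40, and Wdr43, a small-subunit ribosome factor, rose by 0.70. The mitochondrial one-carbon enzymes Mthfd2 (-1.06) and Shmt2 (28.7 to 14.3 CPM) fell. Odc1 was at 148 and 151 CPM in the control and at 133, 117 and 175 CPM in the OA-AP libraries and was not called (-0.076, which was 0.042 without OA-AP replicate 2 and 0.62 with library totals alone). The count of 9 called targets was lower without either control library, as were the calls over all genes. It was 4 without OA-AP replicate 1, where calls over all genes went from 3834 to 2703. With library totals alone 12 rose and none fell. The Wdr43 call was lost without control replicate 1 (0.80), control replicate 2 (0.62) or OA-AP replicate 1 (0.64). For 18 of the 24 genes the change differed between tissues in the 11-library fit, beside 21.3% of all 17046 genes tested. In all 18 the pancreas change was below the adipose change, as it was for 10.8% of all genes. This count was not taken with library totals alone, where the median difference of all genes moved from 0.0555 to 0.88.

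Of the Myc and Max network, 2 of 11 tested genes rose in the pancreas and none fell, and 1 of 13 rose and 1 fell in adipose tissue. Max, the obligate partner of Myc, was not called in the pancreas (13.2 and 13.9 CPM as means, log2 fold change 0.080, which was -0.020 without OA-AP replicate 1) or in adipose tissue (68.3 and 82.0 CPM, 0.26). Mlxip, a glucose-responsive relative also called MondoA, rose in the pancreas from 24.1 and 25.3 CPM to 126, 107 and 141 CPM (2.33, edgeR adjusted p = 0.000106). Zbtb17, the Myc partner Miz-1, rose there from 6.04 to 13.1 CPM (1.12). In adipose tissue Mxd1, a Max-binding antagonist of Myc, rose by 0.63 and Mycl fell by 1.06. Neither adipose call held with each library left out in turn. That of Mxd1 was lost without control replicate 2 (0.52) or OA-AP replicate 3 (0.51), and that of Mycl without control replicate 2 (-0.84), control replicate 3 (-0.91), OA-AP replicate 1 (-1.04) or OA-AP replicate 3 (-0.91).

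Downstream of Rb1, the pocket protein and E2F list had 2 of 9 tested genes called in the pancreas, both lower, and 2 higher and 2 lower of 12 in adipose tissue. In adipose tissue E2f4 (0.81) and E2f3 (0.60) rose, while Rbl1, the pocket protein p107, fell from 21.5 to 12.3 CPM (-0.81) and E2f1, an activator of S-phase genes, from 8.20 to 5.09 CPM (-0.69). The E2f1 call was lost without control replicate 1 (-0.65), control replicate 2 (-0.72), control replicate 3 (-0.66) or OA-AP replicate 1 (-0.52), and that of E2f3 without control replicate 3 (0.53) or OA-AP replicate 3 (0.58). In the pancreas Tfdp2, an E2F dimer partner, fell from 39.6 to 23.1 CPM (-0.78), a call lost without control replicate 1 (-0.81) or control replicate 2 (-0.73). Rbl1 was at 1.14 and 0.416 CPM there (-1.45, not called, but called without OA-AP replicate 3 at -1.42), and E2f1, with 2 to 14 counts a library, was not tested.

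The genes that E2F factors turn on did not move as a group. Of 13 tested in the pancreas 1 rose and 1 fell, beside 29.8% of all genes called. Of 20 in adipose tissue 1 rose and 3 fell, beside 25.1% of all genes called. The median log2 fold changes were 0.13 and 0.064, beside 0.039 and -0.015 over all genes. Rrm2, a ribonucleotide reductase subunit, rose in the pancreas from 3.04 to 9.50 CPM (1.64, edgeR adjusted p = 0.00134). In adipose tissue Tyms, thymidylate synthase, rose by 0.80, and the replication genes Mcm7 (-0.63) and Pola1 (-0.60) fell. Mcm7 was not called without control replicate 3 (-0.58), OA-AP replicate 2 (-0.55) or OA-AP replicate 3 (-0.58), and Pola1 was called in no fit that left out control replicate 2 (-0.54), control replicate 3 (-0.54), OA-AP replicate 1 (-0.60), OA-AP replicate 2 (-0.53) or OA-AP replicate 3 (-0.65).

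Markers of mitosis were scarce. Only 3 of 15 passed the filter on low counts in the pancreas and none was called, passed an unadjusted p of 0.05 or was called by DESeq2, with Mki67 at 2 to 13 counts a library. In adipose tissue 14 were tested and 1, Aurkb, fell (-1.04, chosen for mention after its values were seen, and not called by DESeq2), with a list median of -0.53. The Aurkb call was also lost with the replicate block (-1.03) and without control replicate 1 (-0.92), control replicate 2 (-0.93), OA-AP replicate 1 (-0.88) or OA-AP replicate 2 (-0.97). Mki67, the proliferation marker, had 6.86, 9.62 and 4.90 CPM in the control and 1.81, 6.78 and 3.43 CPM in the OA-AP adipose libraries, which overlapped (-0.82, called only without OA-AP replicate 2, at -1.43). Ccna2, cyclin A2, was not called there (-0.61) and was not tested in the pancreas.

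Of the other G1 and S cyclins and activating factors, 1 of 5 tested genes fell in the pancreas and 1 of 7 in adipose tissue. Ccnh, the cyclin of the CDK-activating kinase, fell in the pancreas from 8.52 to 3.64 CPM (-1.22), which was not called without control replicate 1 (-1.29) or control replicate 2 (-1.15). The phosphatase gene Cdc25b fell in adipose tissue (-0.70), which was not called without OA-AP replicate 2 (-0.56). Of the ubiquitin ligase genes that remove G1 regulators, 3 of 8 rose and 1 fell in the pancreas, and none of 9 was called in adipose tissue, where edgeR's adjusted p was under 0.05 for 1 and its unadjusted p for 2, and where DESeq2 called none either. Fbxo31, an adaptor that targets cyclin D1 for degradation, rose in the pancreas from 90.2 ± 12.7 (n = 2) to 256 ± 15.6 CPM (n = 3), a log2 fold change of 1.51 (SE 0.15, edgeR adjusted p = 0.000373), and the scaffold gene Cul1 rose by 0.99. Over the 8 lists 38 of 104 tested genes (36.5%) were called in adipose tissue, 28 higher and 10 lower, beside 25.1% of all genes, and 22 of the 28 were Myc targets. In the pancreas 22 of 77 (28.6%) were called, near the 29.8% of all genes, with 11 in each direction. The pancreas count was lower without either control library, as were the calls over all genes, and it was 36 (34 higher) with library totals alone.

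**Figure D5:**
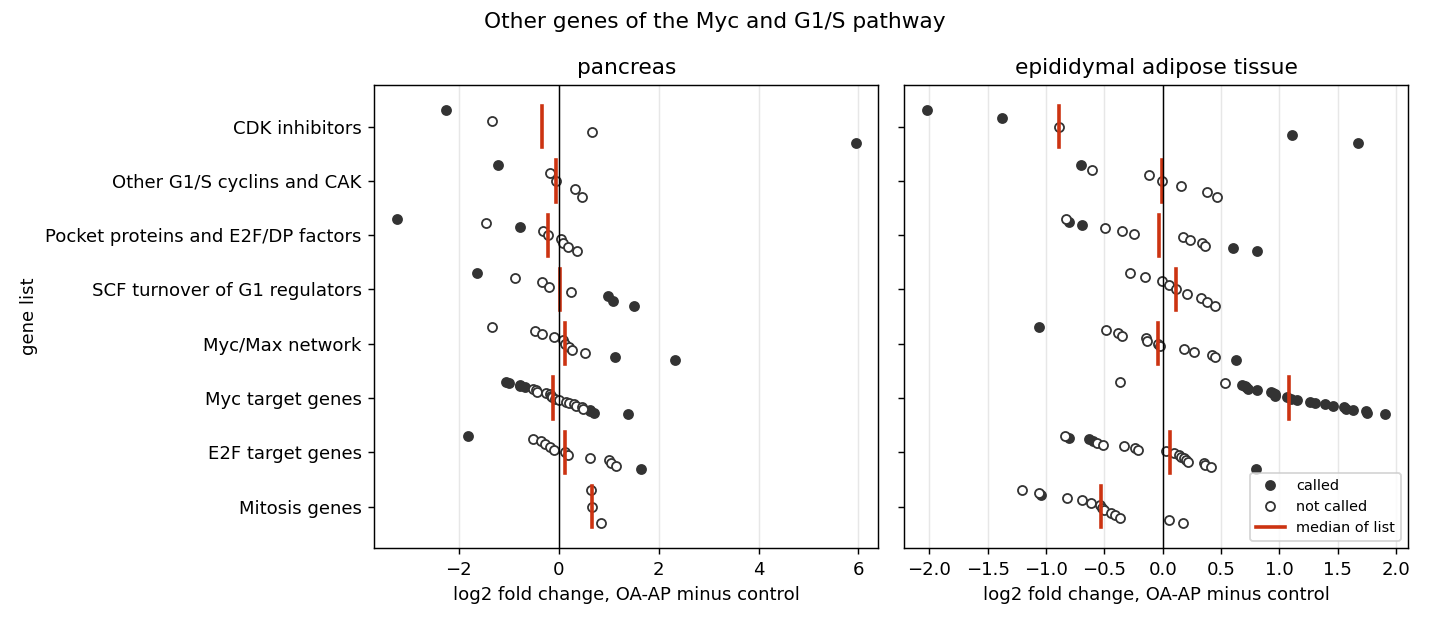
Log2 fold change, OA-AP minus control, of each tested gene of 8 lists in the pancreas (left) and in epididymal adipose tissue (right), with filled points for called genes and a red bar for the list median; the 2 panels have different scales. The 24 Myc target genes have a median of 1.09 in adipose tissue and -0.11 in the pancreas.

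Markers of other cells moved with the adipose comparison, where 12.1% of all genes rose and 13.0% fell. Of 10 tested myeloid markers 6 rose and 1 fell, and the summed CPM of the list was 661 to 808 in the control and 834 to 1169 in the OA-AP libraries. Mesothelial and stromal markers fell for 5 of 9, with a summed CPM of 3441 to 4622 and 2079 to 2488, and lymphocyte markers for 5 of 7, with 10.6 to 41.1 and 2.28 to 4.75. Of 10 adipocyte markers 1 rose and 1 fell, and the list summed to 31710 to 33370 CPM in the control and 34080 to 37500 CPM in the OA-AP libraries, without overlap. Lep, the leptin gene, rose from between 232 and 485 CPM to between 787 and 4082 CPM (2.38, edgeR adjusted p = 0.0301), a call lost without any 1 of the control libraries (2.14 to 2.60). Plin1, the lipid droplet protein perilipin 1, fell from between 1471 and 1659 CPM to between 368 and 683 CPM (-1.47, edgeR adjusted p = 0.00379). The part of these markers in the changes of Myc, Cdk4 and Cdkn1b was not tested. Without control replicate 2, the library with acinar counts, the log2 fold changes were 1.75 for Myc, 0.68 for Cdk4 and -0.70 for Cdkn1b, and all 3 were called.

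Markers moved with the pancreas comparison too, beside the acinar list, where 16.2% of all genes rose and 13.5% fell. Of 5 tested adipocyte markers 3 rose, namely Lipe (1.25), Pnpla2 (2.80) and Adipor2 (2.07), and the list of 10 summed to 73.1 and 92.7 CPM in the control and 228 to 416 CPM in the OA-AP libraries, without overlap. These 3 genes act in lipolysis and adiponectin signalling and are not restricted to adipocytes. The defining adipocyte markers Adipoq, Lep, Plin1, Cidec and Retn had 0 to 4 counts in each pancreas library. Of 6 endothelial markers 2 fell, Kdr (-0.76) and Emcn (-1.59), with summed levels of 61.9 and 78.4 CPM in the control and at most 68.4 CPM in OA-AP, which overlapped. Both endothelial calls were lost without control replicate 2 (-0.31 and -1.50) or OA-AP replicate 1 (-0.72 and -1.50), that of Emcn also without control replicate 1 (-1.67) and that of Kdr also without OA-AP replicate 2 (-0.69). With library totals alone neither was called (-0.039 for Kdr and -0.90 for Emcn). Duct and islet markers each had 1 gene that rose and 1 that fell, and their sums did not overlap, at 97.4 and 108 CPM against 119 to 210 CPM for duct and at 936 and 1161 CPM against 1277 to 1561 CPM for islet markers. The part of these markers in the pancreas changes of the 10 genes was not tested. Of 10 tested myeloid markers 1, Csf1r, fell (-1.16) and none rose, with a list median of 0.86. S100a8 (5.19, SE 2.28), S100a9 (5.53, SE 2.51), Cxcr2 (4.92, SE 2.03), Csf3r (2.40, SE 1.37) and Itgam (1.32, SE 0.55) were higher but not called. Their OA-AP libraries were mostly unequal, as for S100a8 at 12.1 ± 15.4 CPM (SD, n = 3). Lyz2 (-0.10) and Adgre1 (-0.66) were lower and not called. The list summed to 25.4 and 51.7 CPM in the control and 37.6 to 119 CPM in the OA-AP libraries, which overlapped, with Ly6g and Mpo at 0 in both control libraries.

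The genes whose pattern over the 11 libraries was most like that of Myc were found from the root mean square difference of centred log2 CPM. They were Nudcd1 (0.247), Srm (0.264), Lxn (0.286), Qsox1 (0.300) and Dcbld1 (0.331), where the median over the other 17045 genes was 1.27. Srm, spermidine synthase, also belongs to the Myc target list. It was at 28.1 to 28.8 CPM in the control and 72.4 to 109 CPM in the OA-AP adipose libraries, and at 35.1 and 39.3 CPM in the control and 29.6 to 37.4 CPM in the OA-AP pancreas. As descriptions of 11 libraries that share tissue and group, these likenesses have no test.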

How the data were processed

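RNA libraries from 5 pancreas and 6 adipose samples were sequenced. The authors trimmed the reads with Trim Galore 0.6.6, checked them with fastp 0.20.1 (tools also named in the submitters' processing notes), mapped them to GRCm38 with STAR, counted them per gene with featureCounts 2.0.1 and deposited unnormalized whole-number counts, 1 table per tissue. Strand setting and annotation release were not given in the sources used here. Another column of the authors, deposited gene length, was used only for CPM per kb.

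Genes were kept with filterByExpr (12884 in the pancreas, 15839 in adipose tissue, 17046 in the joint fit of the 45260 genes in both tables), scaled with TMM and tested with the robust quasi-likelihood test of edgeR 4.0.16 in R 4.3.3, the tissues apart and, for the tissue difference, together. Calls needed a Benjamini-Hochberg adjusted p under 0.05 and, except for the tissue by condition term, a fold change of at least 1.5. The SE is the log2 fold change over the square root of F, and intervals are 95%. Log2 CPM used a prior count of 2. Groups came from the labels. Library totals were 14188832 to 27928097 counts. In total 0 columns of per-sample values were left unused. Counts differed between replicates by more than counting noise (lowest chi-square per degree of freedom 6.91).

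The 10 genes and all lists were chosen with earlier results of these data known. All 10 are named. From each of 8 pathway lists and each tissue the text names up to 2 called genes a direction with the smallest p and a mean log2 CPM of at least 1, plus Cdkn1a, Rbl1, E2f1, Ccna2, Mki67, Max and Odc1, and the 5 genes most like Myc. Cdkn1c in the pancreas, Aurkb, Rrs1, Tfrc, Srm and the cell type markers with values were added after their values were seen. Alternatives were DESeq2 1.42.0, its size factors, library totals, TMM without 50 acinar genes, no filter, 10 counts in every sample, a fold of 2 or none, each library left out and the replicate number as a block. Where 1 control library was left out in the pancreas, the lone control is assumed to vary like the OA-AP samples.

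On simulated data with 200 changed genes, edgeR found 86 of 100 genes changed 4-fold and 33 of 100 changed 2-fold among 12701 genes in the pancreas, 97 and 65 among 15624 genes in adipose tissue, and 68 and 10 among 16782 genes for the tissue by condition term. As many genes were changed upward as downward, with spread from the fitted trend, and they were found by adjusted p alone, without the fold threshold. In the real pancreas 29.8% of genes were called, so these figures are not detection rates of the calls above.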

Additional observations from a re-analysis of the deposited data

Results flagged for a closer look

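The change between control and OA-AP differed between the pancreas and adipose tissue, by the tissue by condition term of edgeR's quasi-likelihood test, for 6 of the 10 genes. As the pancreas change minus the adipose change on the log2 scale these were Myc (-2.48), Ccnd1 (-2.19), Ccnd2 (-1.71), Cdk4 (-0.87), Cdk2 (0.70) and Cdkn1b (1.32). Myc and Cdkn1b were called in both tissues with opposite signs. Ccnd1 and Ccnd2 were called only in the pancreas, Cdk4 only in adipose tissue, and Cdk2 in neither. No group had 4 or more samples, so single libraries were not screened as outliers.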

How the results depend on the processing

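With library totals in place of TMM, the pancreas changes of Cdk4 (0.52), Odc1 (0.62), Srm (0.55) and Tfrc (0.21), the adipose change of Ccnd3 (-0.055), the tissue by condition differences of Ccne1 (0.40) and Cdk6 (0.38) and the control tissue differences of Cdk4 (-1.59), Cdk6 (-1.64) and Cdkn1b (-2.39) changed sign, and 36 pathway genes were called in the pancreas in place of 22. The sign of the control tissue difference of Cdkn1b also turned with no filter (-0.025) and with 10 counts in every sample (-0.062). At a fold of 2, 2 of the 10 genes were called in the pancreas and 1 in adipose tissue, and 14 and 19 pathway genes, by construction of a higher threshold. With single libraries left out, 1 to 4 of the 10 genes were called in the pancreas, 3 to 4 in adipose tissue, 4 to 6 for the tissue by condition term and 5 to 6 between control tissues, and 10 to 25 and 31 to 39 pathway genes. Signs then turned for Ccne1 (-0.033 to 0.58), Max (-0.020 to 0.13) and Odc1 (-0.31 to 0.042) in the pancreas, Ccnd1 (-0.33 to 0.43) in adipose tissue and Ccnd1 between control tissues (-0.75 to 0.022). The causes were not tested. DESeq2 called 3, 3, 7 and 6 of the 10 genes in the 4 comparisons, where edgeR called 4, 3, 6 and 6.

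A number shared by a control and an OA-AP sample does not mark one animal. Deviations of same-numbered samples from their group means correlated at 0.0035 and -0.0278 in the pancreas and 0.0221, 0.0205 and -0.162 in adipose tissue. Between pancreas and adipose samples they correlated at -0.0111 and 0.00886 in the control and at -0.0115, 0.0498 and 0.09 in OA-AP. Taking out the mean of groups of 2 or 3 samples fixes part of each correlation. These values therefore cannot show whether same-numbered samples shared a mouse, cage or batch. With the replicate number as a block, 3 of the 10 genes were called in the pancreas (Cdkn1b was lost), 3 in adipose tissue, 6 for the tissue by condition term and 5 between control tissues, with 19 and 34 pathway genes. Ccne1 turned to -0.096 in the pancreas. With same-numbered pancreas and adipose samples as 1 mouse, 4 genes were called for the tissue by condition term (Ccnd1 and Cdk2 were lost) and 5 between control tissues (Ccnd3 was lost). Depth limited Ccne1 and the mitosis genes in the pancreas.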
